A study of Mus musculus with 2 samples.

Results

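The genes described here encode the proteins of the cytosolic ribosome, followed in every cell class of prostate tumours from mice of 2 genotypes. Members were the features whose symbol is Rpl or Rps followed by a number with at most 1 closing letter a, x, y or l, or is Rplp0 to Rplp2 or Rpsa, in both libraries. This gave 81 of 28000 features, 31 of the small and 50 of the large subunit. The rule reads symbols and no measured value.

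Each ribosome holds a copy of nearly every one of these proteins, on a small subunit that reads the mRNA and a large subunit that joins the amino acids. Their mRNAs are among the most abundant of any cell. They begin with a 5′ terminal oligopyrimidine (TOP) tract, a C followed by a run of C and T, through which growth signalling by mTOR controls how well they are translated. Prostate epithelium consists of secretory luminal cells and of basal cells beneath them, set in a stroma of fibroblasts, smooth muscle, vessels and immune cells.

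Prostate tumours were dissociated and their cells sequenced with the 10x Genomics 3′ v3 assay, which counts the 3′ ends of mRNAs cell by cell, in 1 library for each genotype. DoubleTg mice (hHGFtg:H11hMET/+:PBCre4) carried a human HGF transgene active throughout the body and a human MET transgene behind a floxed stop, opened by Cre from a probasin promoter, which acts in prostate epithelium. TripleTg mice (hHGFtg:H11hMET/+:Ctnnb1L(Ex3)/+:PBCre4) carried all of these and a floxed Ctnnb1 exon 3, whose removal stabilises β-catenin in the same cells. Both genotypes thus shared HGF, MET and Cre. The stromal and immune cells of a mouse carry the alleles too, but lie outside the cells in which the probasin promoter is known to act. The labels name the DoubleTg tissue prostatic adenocarcinoma and the TripleTg tissue prostatic carcinoma and give no age for either library. With 1 library for each genotype, genotype, animal and library preparation cannot be told apart, no test between libraries was run, and every interval below is a 95% interval that covers counting error only.

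After the limits of over 200 and under 7000 genes and under 15% mitochondrial unique molecular identifiers (UMIs, each marking 1 captured RNA molecule), 10598 DoubleTg cells with a median of 16761 UMIs and 9492 TripleTg cells with a median of 20097 UMIs remained. The libraries shared 29 cell barcodes among these. Each cell was thinned to 5000 UMIs, so that all values are at equal depth. This left out 2171 DoubleTg and 1699 TripleTg shallower cells. Clusters were made in each library without the 81 members, so that no class name rests on them, and 5 classes with at least 100 thinned cells in each library were compared. Their defining markers were detected in both libraries, with the exception of Msmb, which had 0 UMIs in TripleTg luminal-like cells. The summed luminal markers stood at 71569 CPM (UMIs of a gene per 1000000 UMIs) in DoubleTg and 15669 CPM in TripleTg luminal-like cells.

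The share of all UMIs that fell on the 81 members was higher in the TripleTg library in luminal-like cells and differed less in the other classes compared. It was 21.8% in the 4889 DoubleTg and 29.0% in the 4592 TripleTg luminal-like cells, a difference of 7.14 percentage points or 1.33-fold (log2 ratio 0.41, 0.406 to 0.410). Single luminal-like cells spread widely, with quartiles at 18.6% and 25.3% in DoubleTg and at 25.1% and 33.4% in TripleTg, so that the middle ranges met only at their edges. In basal-like cells the share was 25.7% in 1724 DoubleTg and 28.8% in 1090 TripleTg cells (log2 ratio 0.16). The TripleTg value includes 283 cells of a cluster led by Mt4, at 31.6%, while clusters of 601 and 182 cells were at 27.6% and 28.8%. In endothelial-like cells it was 16.1% and 17.7% in 160 cells of each library (0.13, 0.12 to 0.14), but the log2 ratio was 0.022 in cells thinned to 10000 UMIs and 0.015 (-0.0041 to 0.035) in cells of 10000 to 20000 UMIs. The DoubleTg class joined a cluster led by Flt1 and Plvap, of 127 cells at 15.2%, with 33 cells led by Ccl21a and Mmrn1, genes of lymphatic vessels. The TripleTg class was a single cluster, which was led by Ccl21a as well, with Cdh5 and Plvap among its top genes. Without the 33 DoubleTg cells, and with the TripleTg cluster kept whole, so that the pools were less alike, the log2 ratio was 0.22 (0.20 to 0.23). Macrophage-like cells were at 14.9% in 266 DoubleTg and 15.1% in 412 TripleTg cells, a log2 ratio of 0.016 (0.0077 to 0.024). In pooled fibroblast-like cells the share was 19.8% in 278 DoubleTg and 18.3% in 358 TripleTg cells (-0.11, -0.12 to -0.10), a sign that rests on which clusters were pooled. The DoubleTg class was a single cluster led by Apod and Lum, at 19.8%. The TripleTg class joined a cluster led by Apod and Lum, at 22.7%, another led by Col6a1 at 19.2% and another led by Col3a1 at 13.6%. A DoubleTg cluster led by Mgp, with Col1a2 and Acta2 among its top genes, was at 18.1% and stayed unnamed. With the clusters led by Apod and Lum alone the log2 ratio was 0.20 (0.19 to 0.21), and all fibroblast-like values below hold for the unequal pools. In the classes compared other than the luminal-like one, the middle ranges of single cells overlapped for most of their width. Classes too small to compare also differed, so a wide gap was not confined to luminal-like cells. Smooth muscle-like cells were at 13.9% in DoubleTg (46 cells) and 18.6% in TripleTg (62 cells). Dendritic-like cells went the other way, at 27.0% (96 cells) and 22.2% (42 cells).

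**Figure D1:**
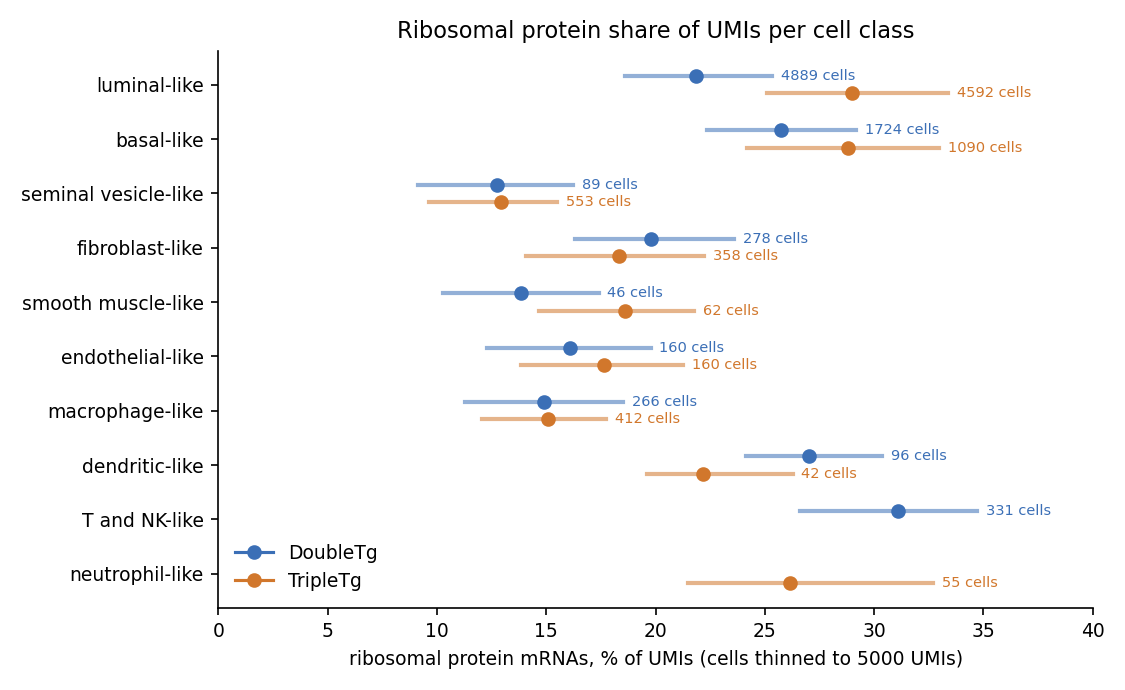
Share of UMIs on the 81 ribosomal protein mRNAs (x axis, % of UMIs, cells thinned to 5000 UMIs) for each cell class and library, with points for the pooled share and bars from the lower to the upper quartile of single cells. The luminal-like classes lie farthest apart, at 21.8% in DoubleTg and 29.0% in TripleTg, whereas the macrophage-like classes at 14.9% and 15.1% nearly coincide.

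Within a library the classes themselves differed by more than the libraries did. In DoubleTg, T and NK-like cells had 31.1% of their UMIs on the members and seminal vesicle-like cells 12.7%. In TripleTg, seminal vesicle-like cells were likewise lowest at 12.9%, while luminal-like cells, at 29.0%, and basal-like cells, at 28.8%, were highest among the named classes. A TripleTg cluster led by Ccl5, Gzma and other T and NK genes, at 28.5%, stayed unnamed, so the T and NK-like class has no TripleTg value. The order of the epithelial classes therefore differed between the libraries, basal-like cells standing above luminal-like cells in DoubleTg and level with them in TripleTg. Both basal-like clusters of DoubleTg (24.99% and 26.1%) were above all 11 of its luminal-like clusters with at least 40 thinned cells, which ran from 14.04% to 24.8%. The lowest of these, at 14.04%, was led by the secretory genes Sbp, Sbpl and Spink1 and held 472 cells with a median of 56787 UMIs. The 8 TripleTg luminal-like clusters of that size ran from 24.8% to 33.3%, so the lowest of them was level with the highest luminal-like cluster of DoubleTg. The 3 basal-like clusters of TripleTg of that size, at 27.6%, 28.8% and 31.6%, lay within that range. The highest of them, led by Mt4, had a basal marker share of 0.60, against 0.78 and 0.66 in the others. Its 10 leading genes held Krt5 but also Dapl1, Krt42, Asprv1 and Sprr1b, so its basal-like name is less firm. A basal-like log2 ratio without the Mt4 cluster was not computed. The TripleTg luminal-like cluster led by Tchh, Cnfn and S100a7a, genes of cornifying epithelium, held 400 thinned cells at 27.5% with no luminal marker among its 10 leading genes, and without it the luminal-like log2 ratio was 0.42. That cluster lay below the 29.0% of its class, and the DoubleTg cluster led by Sbp was kept. A luminal-like log2 ratio without the Sbp cluster was not computed.

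Luminal-like cells were also divided by a detected human MET transcript. Cells with at least 1 hMETtg UMI after thinning made up 68.2% of DoubleTg and 10.2% of TripleTg luminal-like cells. Fibroblast-like cells, in which the probasin promoter is not known to act, had 21.2% and 16.2%, and DoubleTg macrophage-like cells 8.65%. In TripleTg, 95.6% of endothelial-like and 98.8% of macrophage-like cells had no such UMI. The TripleTg luminal-like share thus lay below that of the pooled fibroblast-like cells and above that of the endothelial-like and macrophage-like cells of its library. Among the TripleTg fibroblast-like clusters it was 31.8% in that led by Col6a1, 6.38% in that led by Apod and Lum and 4.31% in that led by Col3a1. The order against fibroblast-like cells thus rests on the cluster led by Col6a1. In luminal-like cells with such a UMI the member share was 22.2% in DoubleTg and 27.1% in TripleTg (log2 ratio 0.29), and in luminal-like cells without one it was 21.1% and 29.2% (0.47). Within luminal-like cells that had a UMI of at least 3 of 15 proliferation genes, the share was 24.0% in DoubleTg and 28.7% in TripleTg (0.26). Grouped by sequencing depth before thinning, luminal-like log2 ratios lay between 0.38 and 0.47 in all 4 bins. Basal-like ones were 0.041 in cells of 5000 to 10000 UMIs and 0.11, 0.18 and 0.13 in the deeper bins, with a median depth of 12661.5 UMIs in all DoubleTg and 21578.5 UMIs in all TripleTg basal-like cells.

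Counted gene by gene, the share of members that were higher in TripleTg stood well above the share of all well-detected features in luminal-like cells, near it in basal-like and endothelial-like cells, and below it in fibroblast-like and macrophage-like cells. The share of members that were lower stood below that of all features in every class. A member was counted as higher or lower at a log2 ratio of at least 0.3 in size, among features with at least 200 CPM in either library. This is a limit of size and not a test. Of the 77 members at that level, 51 were higher and 6 lower in luminal-like cells, where 37.1% and 31.8% of all 762 features were. In basal-like cells 22 were higher and 8 lower, against 30.9% and 40.9% of 846 features. In fibroblast-like cells 2 were higher and 14 lower, against 27.5% and 32.5% of 850 features. Endothelial-like cells had 23 higher and 6 lower, against 25.9% and 41.5% of 978 features. Macrophage-like cells had 11 higher and 10 lower, against 36.8% and 27.8% of 774 features. The median log2 ratio of the members was 0.49 in luminal-like, 0.21 in basal-like, -0.04 in fibroblast-like, 0.16 in endothelial-like and 0.09 in macrophage-like cells, and that of all features 0.10, -0.08, -0.02, -0.13 and 0.13. In the same order, 63, 62, 34, 67 and 31 of the 77 members lay above the median of all features. Against all features, basal-like and endothelial-like members were thus mostly higher too. With all UMIs of all cells the members counted as higher became 10 in endothelial-like and 5 in fibroblast-like cells, against 25.6% and 30.1% of all features. With TMM factors, which centre the bulk of features, 15 were higher in endothelial-like cells, against 23.5% of all features. In basal-like cells 15 were then higher and 9 lower, against 27.7% and 42.8%. In macrophage-like cells, where the factors shifted every ratio by 0.209, 0 were higher and 22 lower, against 25.3% and 36.2%.

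The members did not move as a block. In each class a small set lay well under the rest, and it was largely the same set in every class. Of the 77 members with at least 50 UMIs in every class of both libraries, 25 were higher in TripleTg in all 5 classes and 7 were lower in all 5, against 14.5% and 10.9% of the 1463 features at that minimum. To compare members free of the scaling by total UMIs, the median of the members in a class was subtracted from each log2 ratio. On that measure 16 members lay above and 19 below the median in every class. Its median over the classes was lowest for Rps27, Rpl38, Rps21, Rpl36, Rps28 and Rps29 and Rpl13a, Rpl3, Rpl7, Rpl23a and Rpl10a were among the 6 highest. Both sets were picked by that ranking, so their values are a description.

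**Figure D2:**
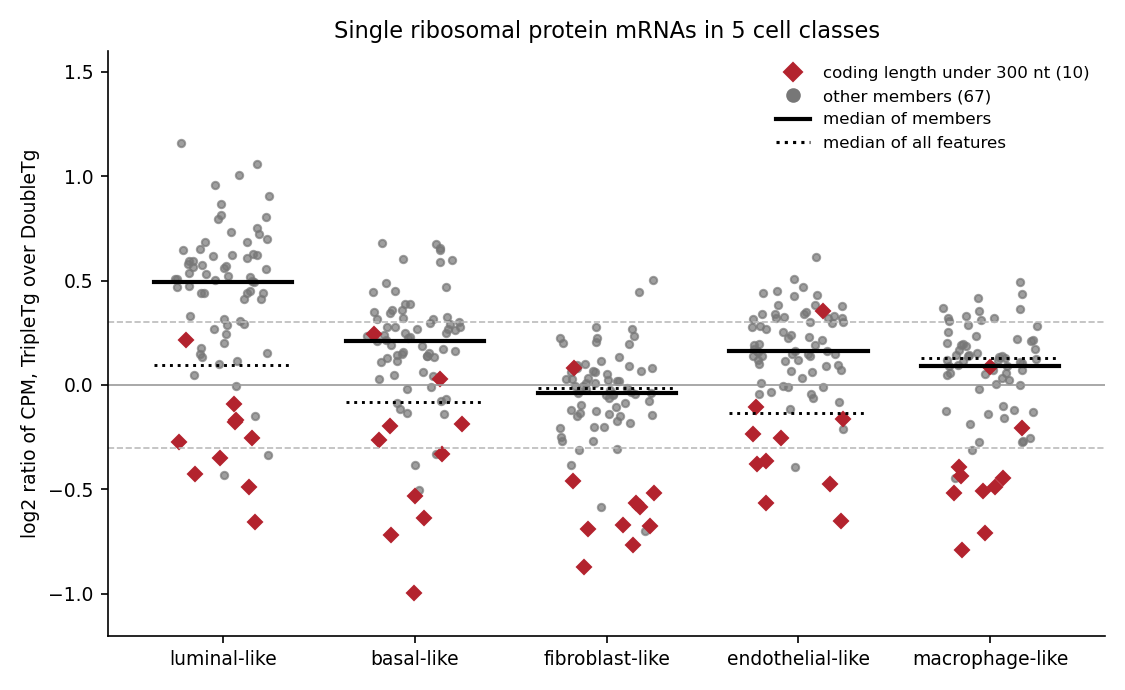
Log2 ratio of CPM, TripleTg over DoubleTg (y axis), of each of the 77 members in 5 cell classes, with the 10 members of coding length under 300 nt as diamonds, solid lines for the median of the members, dotted lines for the median of all features and dashed lines at the 0.3 limit. The diamonds sit mostly under 0 in every class, while the medians of the members range from -0.04 to 0.49.

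Rps27, a zinc finger protein of the small subunit, had the lowest value. Its gene lies on chr3:90212522-90213651 (GRCm38, minus strand). It was at 5888 CPM in DoubleTg and at 2951 CPM in TripleTg basal-like cells (log2 ratio -0.997, -1.02 to -0.97). In luminal-like cells it went from 3558 to 2255 CPM (-0.66), in fibroblast-like cells from 3101 to 1949 CPM (-0.67), in endothelial-like cells from 3050 to 1945 CPM (-0.65) and in macrophage-like cells from 2683 to 1553 CPM (-0.79). Every class thus held less Rps27 in the TripleTg library. Rpl38 of the large subunit (chr11:114668524-114672331, plus strand), known for its part in the translation of Hox mRNAs in the embryo, went from 3234 to 2308 CPM in luminal-like cells (-0.49). It went from 3540 to 2150 CPM in basal-like cells (-0.72) and from 3039 to 1664 CPM in fibroblast-like cells (-0.87). In endothelial-like and macrophage-like cells its log2 ratio was -0.47 and -0.44.

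The other low members belonged to both subunits and kept the same direction in all 5 classes. Rps21 on chr2:180257377-180258445 (plus strand), a small subunit protein, ranged from -0.35 in luminal-like to -0.76 in fibroblast-like cells. Rpl36, of the large subunit, ranged from -0.34 to -0.70 in the same pair of classes, and Rps28 from -0.17 to -0.68. Rps29, a small subunit protein that binds zinc, went from 6779 CPM in DoubleTg to 4734 CPM in TripleTg macrophage-like cells (-0.52) and from 5170 to 4330 CPM in luminal-like cells (-0.26).

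At the other end stood longer members, most of them of the large subunit. Rpl13a, which lies on chr7:45125558-45128761 (minus strand), went from 2115 CPM in DoubleTg to 4103 CPM in TripleTg luminal-like cells (0.96, 0.94 to 0.97) and from 2602 to 4096 CPM in basal-like cells (0.65). It was also higher in fibroblast-like (0.45), endothelial-like (0.38) and macrophage-like cells (0.33). Outside the ribosome Rpl13a is known for holding back translation of inflammatory mRNAs. Rpl3, which helps to shape the centre where peptide bonds form, went from 2257 to 4117 CPM in luminal-like cells (0.87), with log2 ratios of 0.68, 0.23, 0.61 and 0.29 in basal-like, fibroblast-like, endothelial-like and macrophage-like cells. Rpl7 had the highest log2 ratio of any member in luminal-like cells, 1.16 (2060 to 4595 CPM), and was at 0.27 in fibroblast-like cells. Rpl23a and Rpl10a of the large subunit ranged from 0.37 and 0.20 to 0.79 and 0.56, each with its highest log2 ratio in luminal-like cells.

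The low members encode small proteins. The 6 lowest have coding lengths from 168 to 315 nt with a median of 229.5 nt, the 6 highest from 468 to 1209 nt with a median of 636 nt, and all 77 from 75 to 1257 nt with a median of 453 nt. Spearman's correlation of the median deviation with coding length was 0.52 over the 77 members, which share their libraries and are not independent. In single classes it was 0.50 in luminal-like, 0.40 in basal-like, 0.48 in fibroblast-like, 0.47 in endothelial-like and 0.50 in macrophage-like cells. Other features of at least 200 CPM did not share this relation, with -0.081, -0.30, -0.13, -0.42 and -0.25 in the same order. A limit of 300 nt, chosen after these values had been seen, parted 10 members from the other 67: Rpl37, Rpl37a, Rpl38, Rpl39, Rpl41, Rps21, Rps27, Rps27l, Rps28 and Rps29. Their median log2 ratio was -0.26 in luminal-like, -0.30 in basal-like, -0.63 in fibroblast-like, -0.31 in endothelial-like and -0.47 in macrophage-like cells. That of the other 67 was 0.52, 0.23, -0.02, 0.19 and 0.12. Short features that are no members had medians near 0 in luminal-like and above 0 in the other 4 classes, at -0.02 over 81 features in luminal-like, 0.30 over 65 in basal-like, 0.13 over 61 in fibroblast-like, 0.45 over 54 in endothelial-like and 0.42 over 61 in macrophage-like cells.

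**Figure D3:**
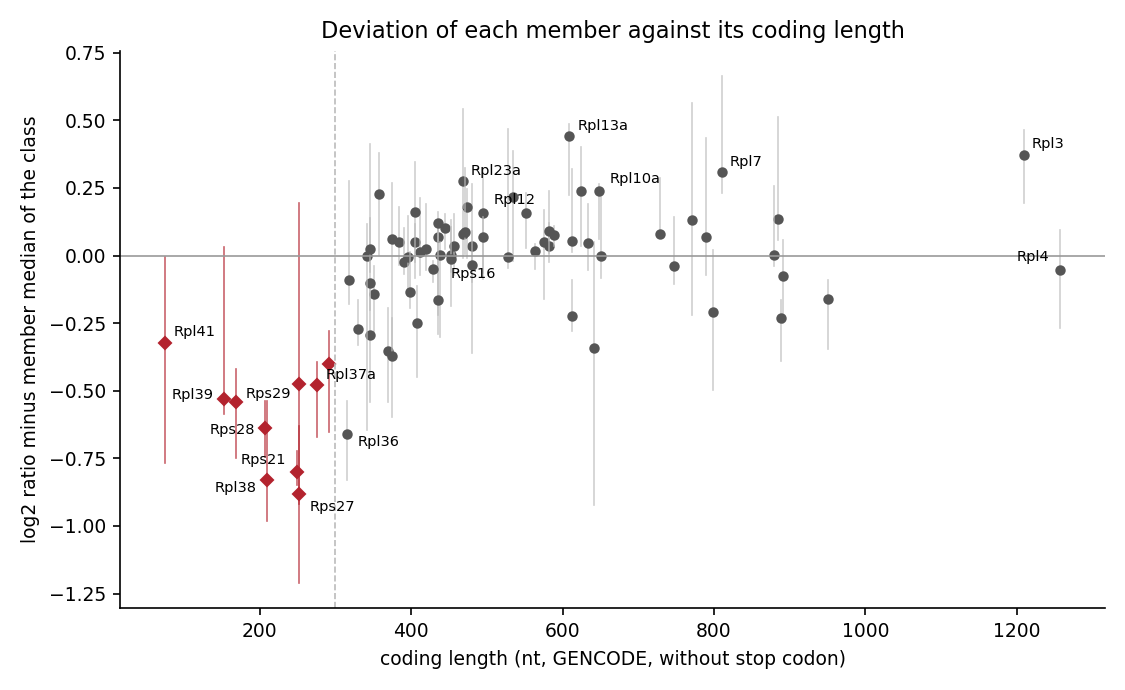
Log2 ratio of each of the 77 members minus the member median of its class (y axis, point for the median over 5 classes, bar from the lowest to the highest class) against coding length (x axis, nt, without the stop codon). The 10 members left of the dashed line at 300 nt all lie under 0, from Rps27 at the bottom to Rpl41.

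Summed, the 10 short members took a larger share of member UMIs in DoubleTg than in TripleTg clusters, without overlap. The 10 were parted after deviations in these same cells had been seen, so their sums are a description and no separate support. Sums over other gene sets of that size were not made. The short members held 17.5% of member UMIs in DoubleTg and 11.2% in TripleTg luminal-like cells. In basal-like cells they held 15.3% and 10.7%, in fibroblast-like cells 16.9% and 11.8%, in endothelial-like cells 16.1% and 11.6%, and in macrophage-like cells 18.9% and 13.7%. Of 29 clusters in each library, 25 in DoubleTg and 26 in TripleTg had at least 40 thinned cells. These 25 DoubleTg clusters, from 15.3% to 19.3%, lay above the 26 TripleTg clusters, which ran from 10.3% to 13.9%. The smaller clusters, of 8 to 33 cells, ran from 15.3% to 18.3% in DoubleTg and from 10.8% to 14.03% in TripleTg. Clusters of a library share its preparation and are not replicates. Both files list the same 28000 features, but the DoubleTg file header names Cell Ranger 6.1.1, the TripleTg header names no release, and the processing notes name 6.0.2 for both, and the part of this in the short members was not tested. Grouped by depth before thinning, the share was between 17.2% and 18.2% in the 4 depth bins of DoubleTg luminal-like cells and between 10.98% and 11.8% in those of TripleTg. The remaining 71 members alone took 18.0% of UMIs in DoubleTg and 25.7% in TripleTg luminal-like cells (log2 ratio 0.51), 21.8% and 25.7% in basal-like cells (0.24), 16.4% and 16.2% in fibroblast-like cells (-0.02), 13.5% and 15.6% in endothelial-like cells (0.21) and 12.1% and 13.01% in macrophage-like cells (0.10). In fibroblast-like cells the short members took 3.34% and 2.17% of all UMIs.

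**Figure D4:**
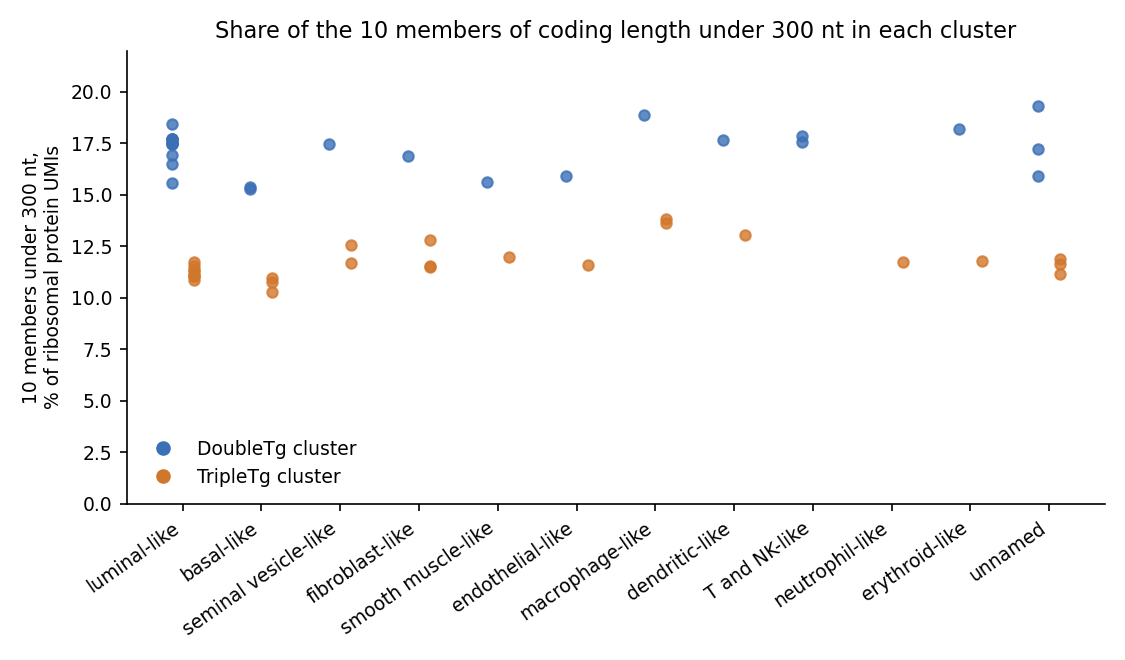
Share of member UMIs on the 10 members of coding length under 300 nt (y axis, %) in each cluster of at least 40 thinned cells, grouped by class (x axis) and coloured by library. The 25 DoubleTg clusters lie between 15.3% and 19.3% and the 26 TripleTg clusters between 10.3% and 13.9%, without overlap in any class. The 10 members were chosen after their values had been seen.

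The sequences at the annotated start of transcription are shown for members of the low set, the high set and the pair that the study names, since TOP mRNAs are defined by this position. Promoters from RefSeq (GRCm38.p6) could be matched to 60 of the 81 members. The windows run 5′ to 3′ on the transcribed strand, with 15 bases on either side of the annotated start. Capitals mark the longest stretch that is a C followed by at least 4 letters that are each C or T. Where RefSeq has another start without such a stretch, as for Rps21 and Rpl10a, the window with it is printed. The windows lie at chr3:90213634-90213663 (minus strand) for Rps27, chr11:114668565-114668594 (plus) for Rpl38, chr2:180257364-180257393 (plus) for Rps21, chr17:33824548-33824577 (minus) for Rps28, chr7:45128731-45128760 (minus) for Rpl13a, chr17:28328456-28328485 (plus) for Rpl10a, chr2:32961697-32961726 (plus) for Rpl12 and chr7:28350674-28350703 (plus) for Rps16.
Rps27: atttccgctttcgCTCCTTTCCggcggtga
Rpl38: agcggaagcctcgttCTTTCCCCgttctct
Rps21: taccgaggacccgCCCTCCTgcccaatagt
Rps28: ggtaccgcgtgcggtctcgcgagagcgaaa
Rpl13a: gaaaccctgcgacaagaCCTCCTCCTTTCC
Rpl10a: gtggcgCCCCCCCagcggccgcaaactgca
Rpl12: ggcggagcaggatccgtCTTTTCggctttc
Rps16: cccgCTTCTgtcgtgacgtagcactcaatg
A tract of this kind was found in windows of low and of high members alike, but not in that of Rps28 nor in those of the other starts of Rps21 and Rpl10a. The stretches printed for Rps16 and Rpl10a end upstream of the annotated start, so they lie outside the annotated mRNA. Counts below take a stretch anywhere in the window, so they do not show a tract at the 5′ end. Such a stretch was in 59.7% of 72 member promoters and in 36.4% of 32851 promoters of all genes. On the other strand it was in 18 of the 72 member promoters and in 40.8% of all promoters. The letters CCGGAAG or their reverse complement, the core bound by ETS factors, were within 300 bases in 36.1% of member promoters and 8.86% of all promoters. A match is a description of these letters and not a shown binding site, and an annotated start may differ from the one used in these cells.

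Members were also ranked by how their luminal-like log2 ratio compared with the non-epithelial ones. The rule took the luminal-like log2 ratio minus the median of the fibroblast-like, endothelial-like and macrophage-like ones. Rpl7, Rpl8, Rpsa and Rpl30 were highest by it. Rpl8, of the large subunit, went from 2326 to 4840 CPM in luminal-like cells (1.06, 1.04 to 1.07), against 3960 and 3940 CPM in basal-like cells (-0.01, -0.03 to 0.02). Its log2 ratios in the other 3 classes lay between 0.11 and 0.26. Rpsa, which also serves as a laminin receptor at the cell surface, went from 2737 to 5502 CPM in luminal-like cells (1.01) and had log2 ratios of 0.27 in basal-like, 0.10 in fibroblast-like, 0.51 in endothelial-like and 0.19 in macrophage-like cells. Rpl30 had a log2 ratio of 0.91 in luminal-like, -0.05 in fibroblast-like, 0.27 in endothelial-like and 0.12 in macrophage-like cells. Of these 4, Rpl7 had a log2 ratio of 0.61 in basal-like cells and Rpl30 of 0.15, and Rpl7 and Rpsa were above the member median in every class.

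Rps27l, Rplp1, Rpl10 and Rpl41 were lowest by the same rule, at -0.51, -0.24, -0.16 and -0.11, so that only Rps27l was far lower in luminal-like cells. Rplp1, an acidic protein of the stalk that recruits elongation factors, went from 6591 to 5942 CPM in luminal-like cells (-0.15) but from 4906 to 6156 CPM in basal-like cells (0.33). Rpl10, an X-linked member that completes the large subunit, went from 3963 to 2942 CPM in luminal-like cells (-0.43) and from 2239 to 2683 CPM in basal-like cells (0.26). In DoubleTg it took 1.82% of member UMIs in luminal-like and 0.870% in basal-like cells, in TripleTg 1.02% and 0.932%, so the gap between the epithelial classes was wide in one library and narrow in the other. Rpl41, the shortest member, went from 5454 to 4511 CPM in luminal-like cells (-0.27) and had log2 ratios of 0.03 in basal-like, -0.56 in fibroblast-like, -0.16 in endothelial-like and 0.09 in macrophage-like cells. Rps27l, a paralog of Rps27 that p53 induces, went from 630.8 to 469.9 CPM in luminal-like cells (-0.42). Its log2 ratio was -0.26 in basal-like, 0.08 in fibroblast-like, 0.36 (0.09 to 0.63) in endothelial-like and -0.49 in macrophage-like cells, so the macrophage-like value was as low as the luminal-like one.

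The study names Rpl12 and Rps16 in its single-cell results. Rpl12, of the stalk base, went from 2450 to 4279 CPM in luminal-like cells (0.80, 0.79 to 0.82). Its log2 ratio was 0.30 in basal-like, 0.28 in fibroblast-like and 0.32 in endothelial-like cells, and 0.01 (-0.07 to 0.08) in macrophage-like cells. Rps16, of the small subunit, went from 3507 to 4950 CPM in luminal-like cells (0.50), from 5427 to 5104 CPM in basal-like cells (-0.09) and from 3691 to 3720 CPM in fibroblast-like cells (0.01). The counting interval of Rpl12 thus lay above 0 in 4 of the 5 classes, whereas basal-like cells held slightly less Rps16 in TripleTg.

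The most counted members also differed between the libraries. Over all cells Rplp1, Rps29, Rpl23 and Rps24 were among the 5 most counted in DoubleTg, and Rpl13, Rpl23, Rps24 and Rpl32 in TripleTg. In 3′ UMI libraries a molecule counts once whatever its length, and no division by length was made. Rpl23 and Rpl11 are known to bind Mdm2 and so to hold p53 stable, as is Rpl5. In luminal-like cells Rpl23 had a log2 ratio of 0.44, Rpl11 of 0.47 and Rpl5 of 0.24. In macrophage-like cells these were 0.28, 0.36 and 0.07.

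Among the 5 classes compared, Rps29 had the widest range in both libraries, followed by Rps27l in DoubleTg and Rps26 in TripleTg. Rps29 took 4.55% of member UMIs in macrophage-like and 2.02% in basal-like cells of DoubleTg, and 3.14% and 1.44% in TripleTg. Of the 5 classes, macrophage-like cells were highest and basal-like cells lowest in both libraries, although the TripleTg level was lower in each. Rps27l took 0.582% of member UMIs in DoubleTg dendritic-like cells, 0.509% in TripleTg ones and 0.0517% in DoubleTg T and NK-like cells. Rps26, of the small subunit, took 1.13% in luminal-like and 0.689% in endothelial-like cells of DoubleTg, and 1.04% and 0.655% in TripleTg. Rpl13 was high in basal-like cells, with 2.71% of member UMIs in DoubleTg and 3.08% in TripleTg. The ratio of small to large subunit UMIs had no common direction, going from 0.751 to 0.790 in luminal-like and from 0.853 to 0.800 in basal-like cells.

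Few UMIs fell on the tissue-restricted paralogs. Rpl10l, a testis paralog of Rpl10, had 0 UMIs in both libraries, Rpl39l had 3 in DoubleTg and 0 in TripleTg, and Rpl3l, a paralog of Rpl3 in heart and skeletal muscle, had 4 and 7. Rpl6l, annotated as a processed pseudogene on chromosome 10, had 2518 and 2769 UMIs. Members with near-identical copies are uncertain where reads could fall on either copy, among them Rpl6 and Rpl6l, and Rps27 and Rps27rt. Rps3a1, which encodes a small subunit protein but misses the name rule, had log2 ratios of 0.81 in luminal-like, 0.42 in basal-like, 0.17 in fibroblast-like, 0.42 in endothelial-like and 0.33 in macrophage-like cells. Fau, which encodes a ribosomal protein fused to a ubiquitin-like protein, had 0.12 in luminal-like and -0.39 in fibroblast-like cells. Rps27a, a member that is also made fused to ubiquitin, had 0.57 and -0.05 in these classes. Of the paralogs outside the rule, Rpl22l1 had 0.46 and Rpl36al -0.51 in luminal-like cells, and Rpl7l1 had -0.97 in basal-like cells.

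Other genes of the translation machinery were mostly higher in TripleTg luminal-like cells, as the members were. Of 17 genes for elongation factors and other TOP mRNAs, 16 had at least 200 CPM in luminal-like cells, and 13 of these passed 0.3 upwards and 0 downwards, against 37.1% and 31.8% of all features. Their summed log2 ratio was 0.45 in luminal-like, 0.20 in basal-like, -0.03 in fibroblast-like, 0.08 in endothelial-like and 0.24 in macrophage-like cells. Eef1b2, a subunit of the exchange factor of elongation factor 1, had 0.97 in luminal-like, 0.66 in basal-like and 0.44 in fibroblast-like cells. Gnb2l1, which encodes the ribosome scaffold RACK1, had 0.85, 0.46 and 0.25. Eef1a1, which brings tRNAs to the ribosome, had only 0.15 in luminal-like cells and 0.41 in basal-like cells.

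The 15 genes of ribosome synthesis, which work in the nucleolus on ribosomal RNA, had a summed log2 ratio of -1.48 in basal-like cells. Only 4 of them reached 200 CPM there, and these 4 were lower in TripleTg, against 40.9% of all features. Ncl (nucleolin) went from 2057 to 727 CPM (-1.50, -1.55 to -1.45) and Nop58, of the particle that methylates ribosomal RNA, had a log2 ratio of -1.66 in these cells. The summed log2 ratio was -0.72 in endothelial-like, -0.63 in fibroblast-like, -0.15 in macrophage-like and 0.05 in luminal-like cells, where 1 or 2 of the genes reached 200 CPM. The summed ribosomal protein mRNAs and these genes thus had opposite signs in basal-like, endothelial-like and macrophage-like cells, where the former had 0.16, 0.13 and 0.016. The 77 mitochondrial ribosomal protein genes, summed, had 0.04 in luminal-like, -0.24 in basal-like, 0.21 in fibroblast-like, 0.36 in endothelial-like and 0.43 in macrophage-like cells, an order of classes unlike that of the members.

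**Figure D5:**
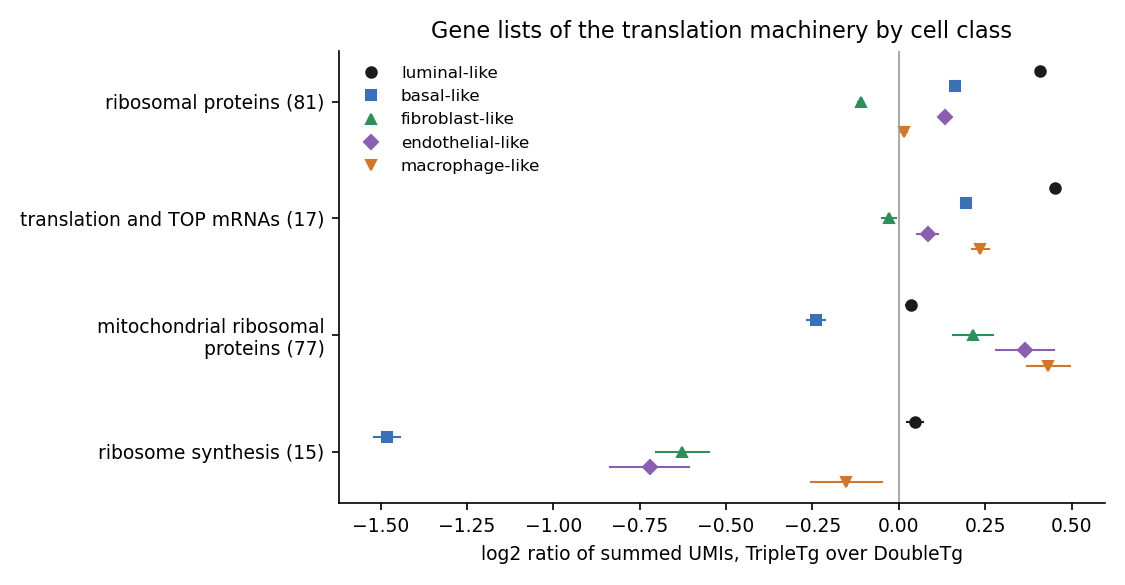
Log2 ratio of summed UMIs, TripleTg over DoubleTg (x axis), of 4 gene lists in 5 cell classes, with 95% counting intervals as bars. Ribosomal protein and TOP mRNAs are highest in luminal-like cells, at 0.41 and 0.45, and ribosome synthesis genes are lowest in basal-like cells, at -1.48.

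RNA of other cell types moved between the libraries in the classes compared. The summed seminal vesicle markers went from 108 to 1611 CPM in luminal-like, from 157 to 2486 CPM in basal-like, from 1497 to 5553 CPM in fibroblast-like, from 195 to 4818 CPM in endothelial-like and from 194 to 3160 CPM in macrophage-like cells. The luminal marker list went from 18591 to 2950 CPM in fibroblast-like and from 4178 to 1348 CPM in macrophage-like cells. Basal markers went from 14639 to 5421 CPM in basal-like cells. The 3 erythroid markers went from 41.8 to 480.2 CPM in luminal-like, from 95.01 to 1532 CPM in basal-like, from 5.04 to 4899 CPM in fibroblast-like, from 6.25 to 7966 CPM in endothelial-like and from 3.01 to 789.8 CPM in macrophage-like cells. The 7 neutrophil markers went from 23.8 to 1246 CPM in endothelial-like and from 16.5 to 233 CPM in macrophage-like cells. The part of these shifts in the member shares was not tested, beyond leaving out the most abundant other genes, which gave a luminal-like log2 ratio of 0.32 and a macrophage-like one of -0.065.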

How the data were processed

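The deposited matrices held raw UMI counts per gene and cell, which the authors made with Cell Ranger on mm10 with both transgene sequences added. The processing notes name Cell Ranger 6.0.2, the DoubleTg file header 6.1.1, and the TripleTg header none. The limits of the study left 10598 of 12072 DoubleTg cells here, more than the study states. The TripleTg matrix already held only the 9492 cells that the study kept, so its cells outside the limits are not known here. The deposited matrices summed to 302424122 and 229655259 UMIs. No doublet caller was run.

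Each library was clustered without the members in scanpy 1.11.5 (2000 variable genes, 20 components, 15 neighbours, Leiden resolution 1). A cluster was named from markers with a mean log2 fold of 2, or of 1.5 where its top 10 genes held a marker, and with 3 raised markers. Epithelial clusters were split by a basal marker share of 0.55 and 5 detected luminal markers. Shallow or mixed clusters stayed unnamed. These thresholds were set after the clusters had been seen.

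Without replacement, 5000 UMIs were drawn from every cell, then summed per class. Shares have Clopper-Pearson and log2 ratios conditional binomial 95% intervals, which cover counting error only. CPM are per 1000000 thinned UMIs. Coding lengths exclude the stop codon and follow the principal isoform of GENCODE vM21. Alternatives are in the closing section, among them TMM (edgeR 4.0.16). On simulated data of 637 genes, intervals covered 94.7% of known ratios.

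Members and lists were chosen with earlier results of these data known. Named genes were those the study names, the 5 most counted per library, the 6 highest and 6 lowest by median deviation, 4 highest and 4 lowest in luminal-like against non-epithelial classes, the 5 widest between classes, the paralogs and the ribosomal proteins outside the name rule. Values of some genes that this rule takes in are not reported here. Rpl5, Rpl11, Rps3a1 and the short members were named after their values were seen. The authors' integration and cell-level tests were left out.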

Additional observations from a re-analysis of the deposited data

Results flagged for a closer look

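The log2 ratio of the ribosomal protein share, TripleTg over DoubleTg, did not go the same way in every class, as it was 0.41 in luminal-like, 0.16 in basal-like, 0.13 in endothelial-like and 0.016 in macrophage-like cells but -0.11 in fibroblast-like cells. The fibroblast-like sign rests on unequal pools, since clusters led by Apod and Lum were at 19.8% in DoubleTg and 22.7% in TripleTg (log2 ratio 0.20). The difference between classes was not tested, since each class has 1 library per genotype.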

How the results depend on the processing

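The luminal-like, basal-like and endothelial-like log2 ratios of the member share stayed above 0 under each alternative below, the fibroblast-like one below 0 with 1 exception, while the macrophage-like one changed sign in 3 of them. No paired analysis was possible because each genotype has 1 library, and no replicate could be left out. In the order luminal-like, basal-like, fibroblast-like, endothelial-like and macrophage-like, the ratios were 0.42, 0.19, -0.093, 0.083 and -0.0058 with all UMIs of all kept cells and 0.47, 0.11, -0.058, 0.015 and 0.0055 in cells of 10000 to 20000 UMIs. Without the most abundant other genes in the denominator they were 0.32, 0.15, -0.12, 0.15 and -0.065, and with TMM factors 0.46, 0.11, -0.17, 0.097 and -0.19. Without the members under 300 nt, an alternative chosen after seeing the data, they were 0.51, 0.24, -0.025, 0.21 and 0.10. With other pools of clusters, also chosen after seeing the data, the ratio was 0.42 in luminal-like cells without the cluster led by Tchh, 0.22 in endothelial-like cells without the DoubleTg cluster led by Ccl21a (the TripleTg one, also led by it, was kept) and 0.20 in fibroblast-like cells of the clusters led by Apod and Lum. The luminal-like pool kept the low DoubleTg cluster led by Sbp. No other pool was made for basal-like or macrophage-like cells, and the basal-like pool kept the high TripleTg cluster led by Mt4. Thinning to 10000 UMIs gave 0.17, -0.070, 0.022 and 0.0024 in the last 4 classes. Without mitochondrial UMIs basal-like, fibroblast-like and endothelial-like cells had 0.17, -0.10 and 0.15. Cells that were not cycling gave 0.41 in luminal-like, 0.17 in basal-like and 0.12 in endothelial-like cells, and clusters made with the members 0.16 in basal-like cells. Members higher by 0.3 numbered 5 in fibroblast-like and 10 in endothelial-like cells with all UMIs (30.1% and 25.6% of all features), and 15 in endothelial-like and 0 in macrophage-like cells with TMM factors (23.5% and 25.3%), where 22 were lower (36.2%). The causes were not tested. The endothelial-like value in cells of 10000 to 20000 UMIs had an interval from -0.0041 to 0.035, so neither the endothelial-like nor the macrophage-like difference is firm in size or sign, and the fibroblast-like sign is not firm. Depth limits single members most in endothelial-like cells, with 160 thinned cells in each library.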

Other observations

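Classes with fewer than 100 thinned cells in a library were not compared. Dendritic-like cells had 27.0% of their UMIs on the members in DoubleTg (96 cells) and 22.2% in TripleTg (42 cells), and smooth muscle-like cells 13.9% (46 cells) and 18.6% (62 cells). Neutrophil-like cells, named in TripleTg alone, had 26.1% (55 cells). Seminal vesicle-like cells, 89 in DoubleTg and 553 in TripleTg, had 12.7% and 12.9%. Cells of unnamed clusters had 18.2% in DoubleTg (469 cells) and 25.6% in TripleTg (330 cells). The 16 pseudogene features of ribosomal proteins that lie outside the rule took 0.0214% of UMIs in DoubleTg and 0.0331% in TripleTg luminal-like cells, a log2 ratio of 0.63, and 0.0201% and 0.0199% in fibroblast-like cells.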
